A study of Mus musculus with 8 samples.

Results

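MHC class II molecules are cell-surface heterodimers that present peptides from ingested proteins to CD4+ T cells. The 8 genes described here encode the classical chains H2-Aa, H2-Ab1 and H2-Eb1, the invariant chain Cd74, the peptide-exchange subunits H2-DMa, H2-DMb1 and H2-DMb2, and the transcriptional coactivator Ciita. They were chosen by name and form 8 of the 31053 genes in the count table. Their transcripts were measured by bulk RNA-seq of brown adipose tissue (BAT) in 4 WT mice and 4 Ucp1Δ/Δ mice, the genotype that the labels spell ATGLKO. In Ucp1Δ/Δ mice Pnpla2, which encodes the triglyceride lipase ATGL, is deleted by a Cre recombinase under the Ucp1 promoter, so the deletion is directed to thermogenic adipocytes and not to the leukocytes that usually carry class II. The strain was C57BL6/J in both groups, the labels give an age of 10 weeks where the study's text gives a younger one, and the study's methods describe its mice as male. No source used here says whether the WT mice carried the floxed allele.

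An α chain and a β chain of class II assemble in the endoplasmic reticulum on CD74, which fills the groove and directs the complex to endosomes. There, proteases trim CD74 to a short remnant, and H2-DM exchanges that remnant for an antigenic peptide. Transcription of the genes for the class II chains, CD74 and H2-DM is a trait of macrophages, dendritic cells and B cells. It depends on CIITA, which is recruited by factors bound to the X and Y boxes upstream of each gene. Interferon gamma can switch CIITA on in many other cell types, including adipocytes. C57BL/6 mice express the H2-Eb1 transcript but lack a functional partner α chain, whose gene is annotated as a pseudogene.

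Of the members, 6 lie in a single stretch of chromosome 17 of mm10, from the start of H2-DMa to the end of H2-Eb1 (chr17:34119541-34316674). The other two, Cd74 and Ciita, lie elsewhere in the genome. RefSeq promoter windows of GRCm38.p6, which run from 250 bases before to 50 bases after the start site, were at hand for 5 of the 8 members: H2-Aa, H2-Eb1, H2-DMa, H2-DMb1 and H2-DMb2. They were read on both strands for the letters of the Y box, TGATTGG, and for a half-site of the X box, GNAAC, placed 22 to 30 bases before the Y box. The half-site and this spacing were set after the sequences had been read. The letters TGATTGG were in 7.82% of all 32851 promoter windows, and the pair was in 0.286% of them. H2-Aa, H2-Eb1 and H2-DMb1 held the pair, and neither of the windows of H2-DMa held either. H2-DMb2 held the Y box letters without GNAAC at that distance. It held ttaac within the 22 to 30 bases, which differs from GNAAC in the first base only. Only exact letters were counted, so the search cannot show that H2-DMb2 lacks an X box. The stretches around the Y box are given here for the classical chains H2-Aa and H2-Eb1 and, for contrast, for H2-DMb2 and for the class II genes H2-Ob and H2-Eb2, whose transcripts were close to 0 in this tissue. Capitals mark the X half-site and the Y box, 5′ to 3′ on the strand of the gene.
H2-Aa, chr17:34287844-34287923, minus strand: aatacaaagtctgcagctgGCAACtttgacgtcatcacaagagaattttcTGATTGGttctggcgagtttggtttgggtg
H2-Eb1, chr17:34305756-34305835, plus strand: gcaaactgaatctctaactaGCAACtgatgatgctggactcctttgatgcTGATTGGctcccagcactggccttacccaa
H2-DMb2, chr17:34145107-34145186, plus strand: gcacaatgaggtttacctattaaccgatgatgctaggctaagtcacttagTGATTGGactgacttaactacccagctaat
H2-Ob, chr17:34238796-34238875, plus strand: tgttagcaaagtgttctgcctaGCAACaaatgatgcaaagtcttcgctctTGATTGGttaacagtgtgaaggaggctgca
H2-Eb2, chr17:34325523-34325602, plus strand: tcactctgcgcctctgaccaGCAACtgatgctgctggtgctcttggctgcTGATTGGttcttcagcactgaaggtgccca

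The X half-site and the Y box were 26 bases apart in H2-Aa and H2-DMb1, and 25 bases apart in H2-Eb1 and H2-Eb2. H2-Oa, whose transcript was also close to 0, held the pair at 26 bases. The letters were thus present both in class II genes with 330 (H2-DMb1) to 4801 counts (H2-Aa) over all mice and in others with 0 (H2-Eb2) to 13 counts (H2-Ob). Of the 7 class I presentation genes with a promoter window, 0 held the pair and 4 held the Y box letters. The half-site and spacing were set after the sequences had been read, and only exact letters were counted. This comparison therefore cannot show whether class I promoters hold an X box in another spelling.

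**Figure D1:**
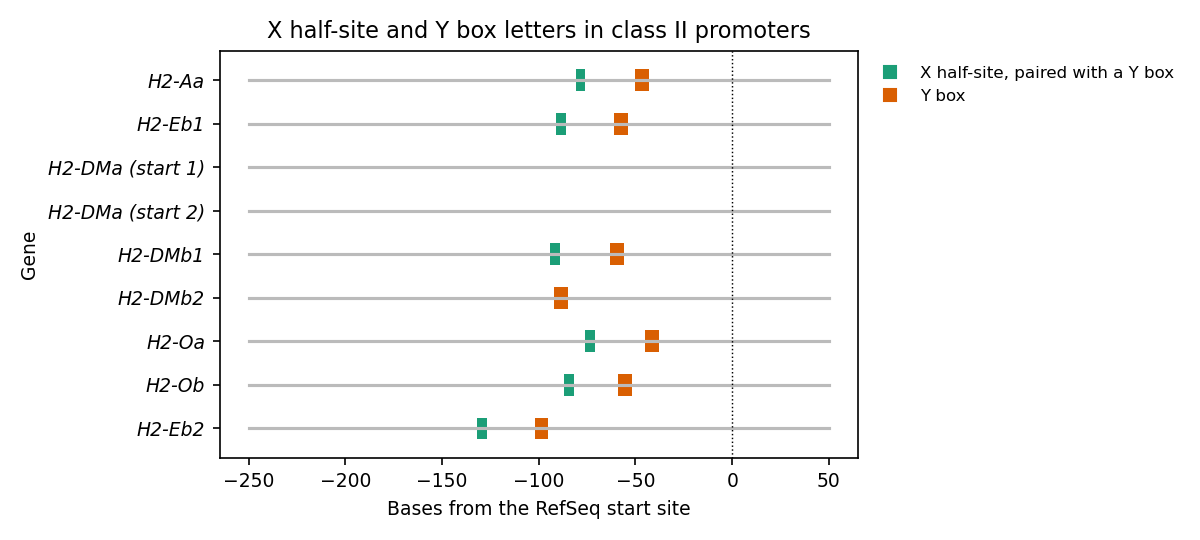
Positions of the X half-site and of the Y box letters in the promoter windows of class II genes, in bases from the RefSeq start site (dotted line). Of the 9 windows, 6 hold both in the same order, and both windows of H2-DMa are empty. H2-DMb2 has the Y box without the exact letters GNAAC at the set spacing.

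The libraries held 2017697 to 3115956 counts in WT mice and 2240612 to 2941799 in Ucp1Δ/Δ mice, so that 3 counts correspond to 0.933 to 1.53 CPM, the count scaled to a common library size by TMM. The expression level of Pnpla2 was 2913 ± 191 CPM in WT and 474 ± 59.2 CPM in Ucp1Δ/Δ mice (SD, n = 4 each; log2FC -2.62, SE 0.17, adjusted p = 1.97e-07). Although the labels name the stromal vascular fraction as the cell type, adipocyte transcripts were abundant, with a summed level of the 7 brown adipocyte markers of 12880 to 20640 CPM in WT and 8987 to 13360 CPM in Ucp1Δ/Δ mice. Skeletal muscle transcripts varied between mice of both genotypes, from 14.4 to 1112 CPM in WT and from 46.8 to 1518 CPM in Ucp1Δ/Δ mice. Of 8930 genes tested, 1191 were higher and 681 lower in Ucp1Δ/Δ mice at an adjusted p under 0.05, against 1478 higher and 404 lower when libraries were scaled by total counts only, and that scaling shifted the median of all log2FC values from -0.01 to 0.13.

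Class II transcripts were present in the BAT of WT mice and were several-fold more abundant in Ucp1Δ/Δ mice. The summed level of the 8 members was 244 ± 57.5 CPM in WT and 1290 ± 181 CPM in Ucp1Δ/Δ mice (SD, n = 4 each). WT replicates 1 to 4 had 450, 661, 506 and 555 class II counts, and Ucp1Δ/Δ replicates 1 to 4 had 4314, 4288, 2704 and 2723. The transcripts of H2-Aa, H2-Ab1, H2-Eb1 and Cd74 made up 92.4% to 96.4% of these counts in every mouse. Of the 8 members, 7 passed the filter on low counts and were tested, and these 7 were higher in Ucp1Δ/Δ mice at an adjusted p under 0.05, a call that 13.3% of all genes tested received, while 7.63% were called lower and 21% either way. No Ucp1Δ/Δ mouse overlapped with a WT mouse for any of the 7, as was the case for 14.4% of all genes tested. The median log2FC of the 7 was 2.35, beside -0.01 over all genes tested, and 5 of them had a log2FC above 2, which 3.61% of all genes reached with the same call. In bulk tissue, more cells of a type and more RNA per cell cannot be told apart.

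**Figure D2:**
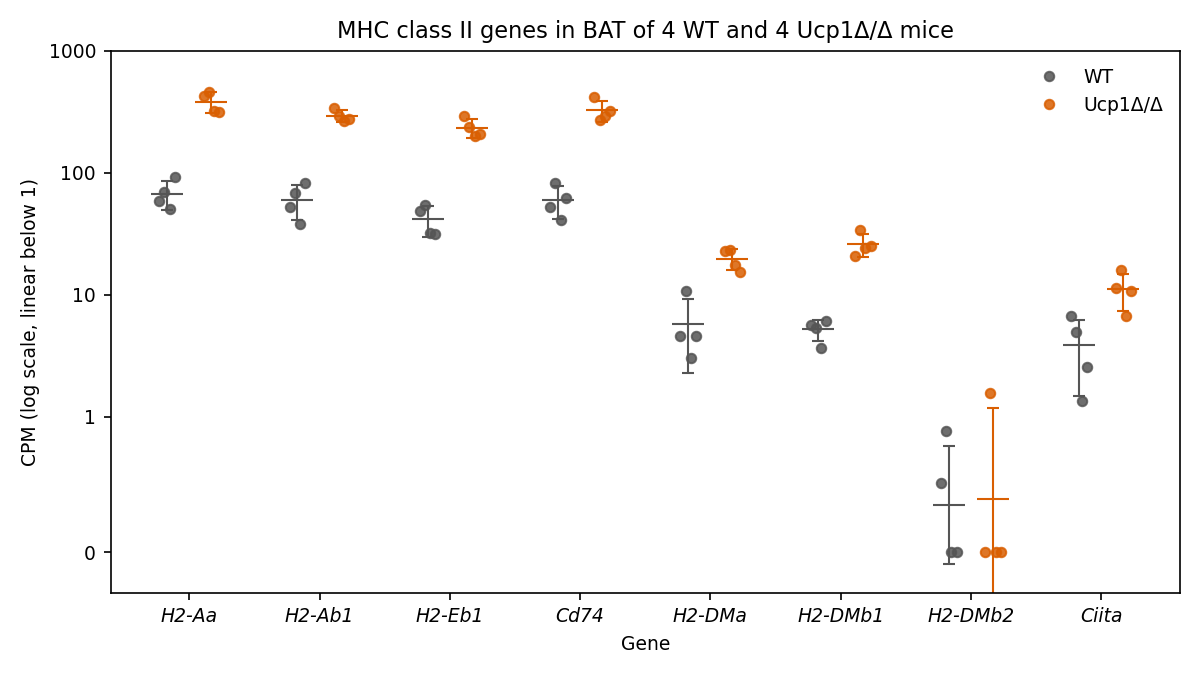
Expression level in CPM of the 8 class II genes, 1 point per mouse, with the mean and SD (n = 4) of each genotype. The axis is logarithmic above 1 CPM and linear below it. The genotypes are apart for each gene except H2-DMb2, which has 0 counts in 2 WT and 3 Ucp1Δ/Δ mice.

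H2-Aa (ENSMUSG00000036594, chr17:34282744-34287823 in mm10, minus strand) encodes the α chain of I-A, the class II isotype that C57BL/6 mice display. In replicate order, its level was 59.2, 69.0, 50.1 and 91.7 CPM for WT mice and 429, 460, 323 and 316 CPM for Ucp1Δ/Δ mice, and values by mouse follow this order hereafter. The lowest Ucp1Δ/Δ mouse thus lay above the highest WT mouse by more than the spread within either genotype. The group levels were 67.5 ± 17.9 and 382 ± 73.8 CPM (SD, n = 4 each), a log2FC of 2.50 (SE 0.22, adjusted p = 1.41e-06, edgeR).

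H2-Ab1 (ENSMUSG00000073421, chr17:34257689-34269419, plus strand), the β chain that pairs with H2-Aa, was at 52.5, 67.7, 37.7 and 82.6 CPM in WT mice and at 338, 294, 268 and 276 CPM in Ucp1Δ/Δ mice. The 4 Ucp1Δ/Δ mice were close to each other, and WT replicates 3 and 4 formed the extremes of their group for this gene as for H2-Aa. The log2FC was 2.30 (SE 0.22, adjusted p = 3.74e-06), from 60.1 ± 19.3 to 294 ± 31.2 CPM (SD, n = 4 each).

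H2-Eb1 (ENSMUSG00000060586, chr17:34305867-34316674, plus strand), the β chain of the I-E isotype, was at 48.4, 54.7, 32.1 and 31.4 CPM in WT mice and at 289, 236, 199 and 206 CPM in Ucp1Δ/Δ mice. It followed the I-A chains in Ucp1Δ/Δ mice, while WT replicate 4, the highest WT mouse for H2-Aa and H2-Ab1, was the lowest for H2-Eb1. The log2FC was 2.48 (SE 0.22, adjusted p = 1.58e-06).

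Cd74 (ENSMUSG00000024610), the invariant chain, is encoded at chr18:60803848-60812652 (plus strand). It was at 52.0, 82.9, 41.1 and 62.3 CPM in WT mice and at 415, 270, 292 and 320 CPM in Ucp1Δ/Δ mice. The groups were well apart, and Ucp1Δ/Δ replicate 1 was the highest of all mice. The log2FC was 2.45 (SE 0.23, adjusted p = 2.46e-06), which placed the chaperone within 1 SE of the chains it escorts.

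The peptide-exchange factor was less abundant. H2-DMb1 (ENSMUSG00000079547, chr17:34153072-34160230, plus strand), its β subunit, had 11, 12, 11 and 12 counts in WT mice and 59, 109, 58 and 58 counts in Ucp1Δ/Δ mice. Its level rose from 5.18 ± 1.05 to 26.0 ± 5.58 CPM (SD, n = 4 each; log2FC 2.35, SE 0.26, adjusted p = 1.13e-05). H2-DMa (ENSMUSG00000037649, chr17:34119541-34139101, plus strand), the α subunit, had 9, 24, 9 and 9 counts in WT mice and 65, 74, 42 and 36 counts in Ucp1Δ/Δ mice. WT replicate 2 stood above the other WT mice, and still below every Ucp1Δ/Δ mouse. The level of H2-DMa was 5.73 ± 3.43 CPM in WT and 19.8 ± 3.86 CPM in Ucp1Δ/Δ mice (SD, n = 4 each; log2FC 1.81, SE 0.33, adjusted p = 0.000919).

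H2-DMb2 (ENSMUSG00000037548, chr17:34143307-34151555, plus strand), a second β subunit that neighbours H2-DMb1, was barely detected. It had 1, 2, 0 and 0 counts in WT mice and 0, 5, 0 and 0 counts in Ucp1Δ/Δ mice, or 8 counts in all, and was not tested. Between the spliced transcripts of H2-DMb1 and H2-DMb2, 254 windows of 75 bases, the read length, were identical, which is 15.8% of the windows of H2-DMb1. Reads from these windows cannot be assigned to either gene, and the counts of both H2-DMb1 and H2-DMb2 are uncertain for that reason. H2-Aa, H2-Ab1, H2-Eb1 and Cd74 had 0 windows in common with another annotated gene.

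Ciita (ENSMUSG00000022504), which encodes the coactivator that class II promoters require, lies at chr16:10480059-10528418 (plus strand). It had the lowest counts of the 7 genes tested. It had 13, 11, 4 and 5 counts in WT mice and 32, 51, 16 and 25 counts in Ucp1Δ/Δ mice. In CPM the lowest Ucp1Δ/Δ mouse, at 6.69, was close to the highest WT mouse, at 6.63. Its level was 3.86 ± 2.38 CPM in WT and 11.2 ± 3.76 CPM in Ucp1Δ/Δ mice (SD, n = 4 each; log2FC 1.60, SE 0.41, adjusted p = 0.0111). The call was lost without Ucp1Δ/Δ replicate 2, where the log2FC was 1.37 and the adjusted p was 0.052. The filter asked for about 4.22 CPM in 4 mice, a level that Ciita reached in 2 and H2-DMa and H2-DMb1 in 3 of the 4 WT mice, and that each of the 3 genes reached in all 4 Ucp1Δ/Δ mice. The other 4 genes tested reached it in every mouse.

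By the exact permutation test over mice, each of the 7 genes gave p = 0.0286, the smallest value that 4 mice against 4 allow (two-sided). Exons of H2-DMa share 360 bases with Brd2 on the opposite strand, and exons of Ciita share 329 bases with Dexi on the opposite strand. Whether the counting used strand is not given in the sources used here, so reads from these bases cannot be told apart.

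Per kilobase of exon, Cd74 was the most abundant member in both genotypes, at 35.5 ± 10.6 CPM per kb in WT and 193 ± 38.0 CPM per kb in Ucp1Δ/Δ mice (SD, n = 4 each). In WT mice it was followed by H2-Ab1 (23.4), H2-Eb1 (21.4) and H2-Aa (17.8 CPM per kb), and each neighbour in this order overlapped with the next. In Ucp1Δ/Δ mice Cd74 lay above H2-Eb1 without overlap, and H2-Eb1 (120), H2-Ab1 (114) and H2-Aa (101 CPM per kb) overlapped in turn. H2-DMb1 was well below the classical chains without overlap, at 3.08 CPM per kb in WT and 15.5 CPM per kb in Ucp1Δ/Δ mice. H2-DMa was at 1.66 and 5.73 CPM per kb, and Ciita at 0.404 and 1.17 CPM per kb. The order from H2-DMb1 to H2-DMa, Ciita and H2-DMb2 was the same in both genotypes, but H2-DMb1 and H2-DMa overlapped in WT mice, and the lowest pair, Ciita and H2-DMb2, overlapped in each genotype. This order depends on the division by length. In CPM, H2-Aa had the highest mean of the members in both genotypes, at 67.5 CPM in WT and 382 CPM in Ucp1Δ/Δ mice. Cd74 was at 59.6 and 324 CPM. The study's methods name a digital mRNA-seq service. Whether its reads were drawn from the whole transcript is not given in the sources used here. If they were not, levels per kilobase do not rank the genes by abundance.

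**Figure D3:**
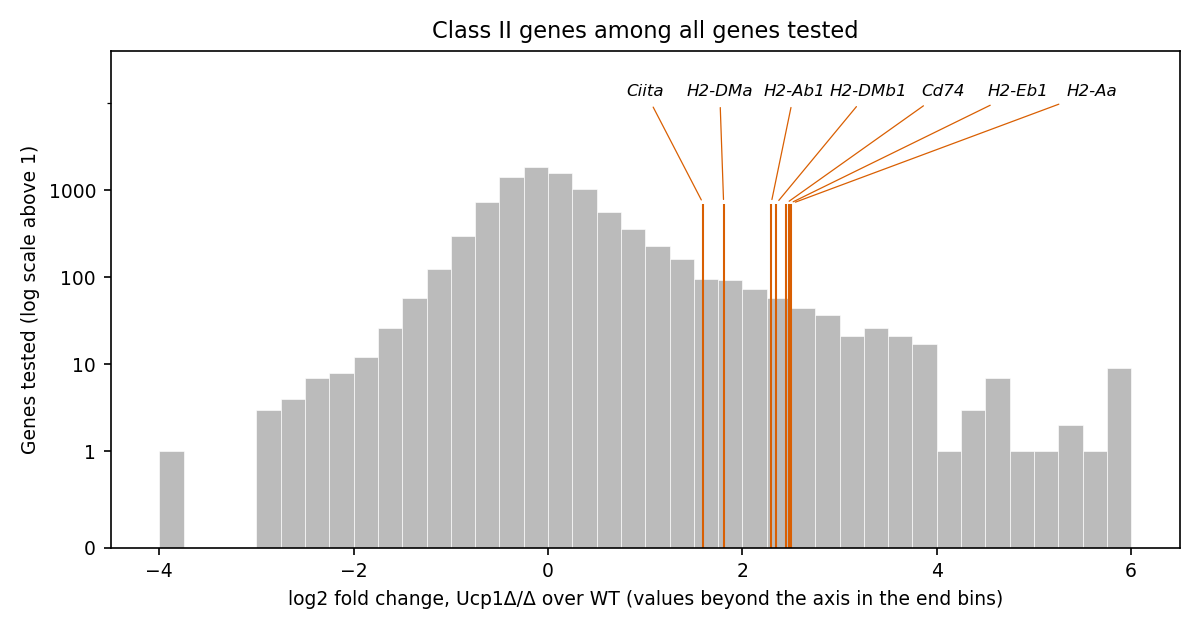
Number of genes tested by log2FC of Ucp1Δ/Δ over WT in bins of 0.25, with values beyond the axis placed in the end bins, and the 7 class II genes tested marked by lines. They lie between 1.60 and 2.50, to the right of the bulk of the 8930 genes.

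Among all genes tested, 189 had a larger log2FC than H2-Aa and 468 a larger one than Ciita. The 7 class II genes thus lay above 94.7% to 97.9% of all genes tested by log2FC.

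The other class II genes were close to 0 in both genotypes. H2-Oa and H2-Ob, the subunits of the H2-DO protein that restrains H2-DM in B cells, had a mean of 0.338 and 0.742 CPM in WT and 0.429 and 0.507 CPM in Ucp1Δ/Δ mice. H2-Eb2, a β chain gene next to H2-Eb1, had 0 counts in every mouse. None of the 3 had enough counts to be tested.

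The chromosome 17 stretch that holds 6 of the members also holds class I genes. Within it, 11 further genes are annotated, of which 8 were in the table and 4 were tested, namely Psmb9, Tap1, Psmb8 and Tap2. They encode immunoproteasome subunits and the peptide transporter of the class I route. Their log2FC was 0.65, 0.60, 0.45 and 0.18, and edgeR called 0 of the 4, with 1 at an unadjusted p under 0.05 and 0 called by DESeq2 or limma voom. The stretch was delimited after the values had been seen.

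The class I list of 9 genes, which includes these 4, had a median log2FC of 0.61, beside 2.35 for class II. Of 8 tested, 4 were higher in Ucp1Δ/Δ mice: H2-D1 (log2FC 0.77, adjusted p = 0.00587), B2m (0.68, adjusted p = 0.00726), Tapbp (0.61, adjusted p = 0.0102) and H2-K1 (0.61, adjusted p = 0.0302), the last of which lost its call when any of 6 mice was left out. Within a mouse, the log2 ratio of H2-Ab1 to B2m in CPM ran from -4.36 to -3.44 in WT and from -2.32 to -2.15 in Ucp1Δ/Δ mice, a comparison chosen after the values had been seen and not tested.

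Of the 6 tested proteases that trim CD74 and antigens, 3 were higher in Ucp1Δ/Δ mice and 3 were not called. Ctss, cathepsin S, which cleaves the last fragments of CD74 in macrophages and dendritic cells, had 28, 27, 25 and 15 counts in WT mice and 581, 1028, 330 and 526 counts in Ucp1Δ/Δ mice. It rose from 10.6 ± 3.15 to 222 ± 75.1 CPM (SD, n = 4 each; log2FC 4.40, SE 0.29, adjusted p = 2.04e-07). Lgmn, the asparaginyl endopeptidase that starts the cleavage of CD74, rose from 4.07 to 14.4 CPM (log2FC 1.83, SE 0.31, adjusted p = 0.000566). Ctsl, cathepsin L, went from 45.5 to 74.7 CPM with overlapping groups (log2FC 0.72, adjusted p = 0.0294), a call that was lost when any of 5 mice was left out.

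Ctsb and Ctsd, the abundant cathepsins of most lysosomes, had a log2FC of -0.03 and 0.02, and Sppl2a, the protease that clears the membrane stub of CD74, a log2FC of -0.09. None of these 3 was called, with 0 at an unadjusted p under 0.05 and 0 called by DESeq2 or limma voom. Marchf1, the ubiquitin ligase that takes class II off the cell surface, was not tested. It had 0, 3, 3 and 2 counts in WT mice and 17, 22, 8 and 13 counts in Ucp1Δ/Δ mice, which do not overlap, and is named after its counts were seen. The median log2FC of the 6 genes tested was 0.37.

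**Figure D4:**
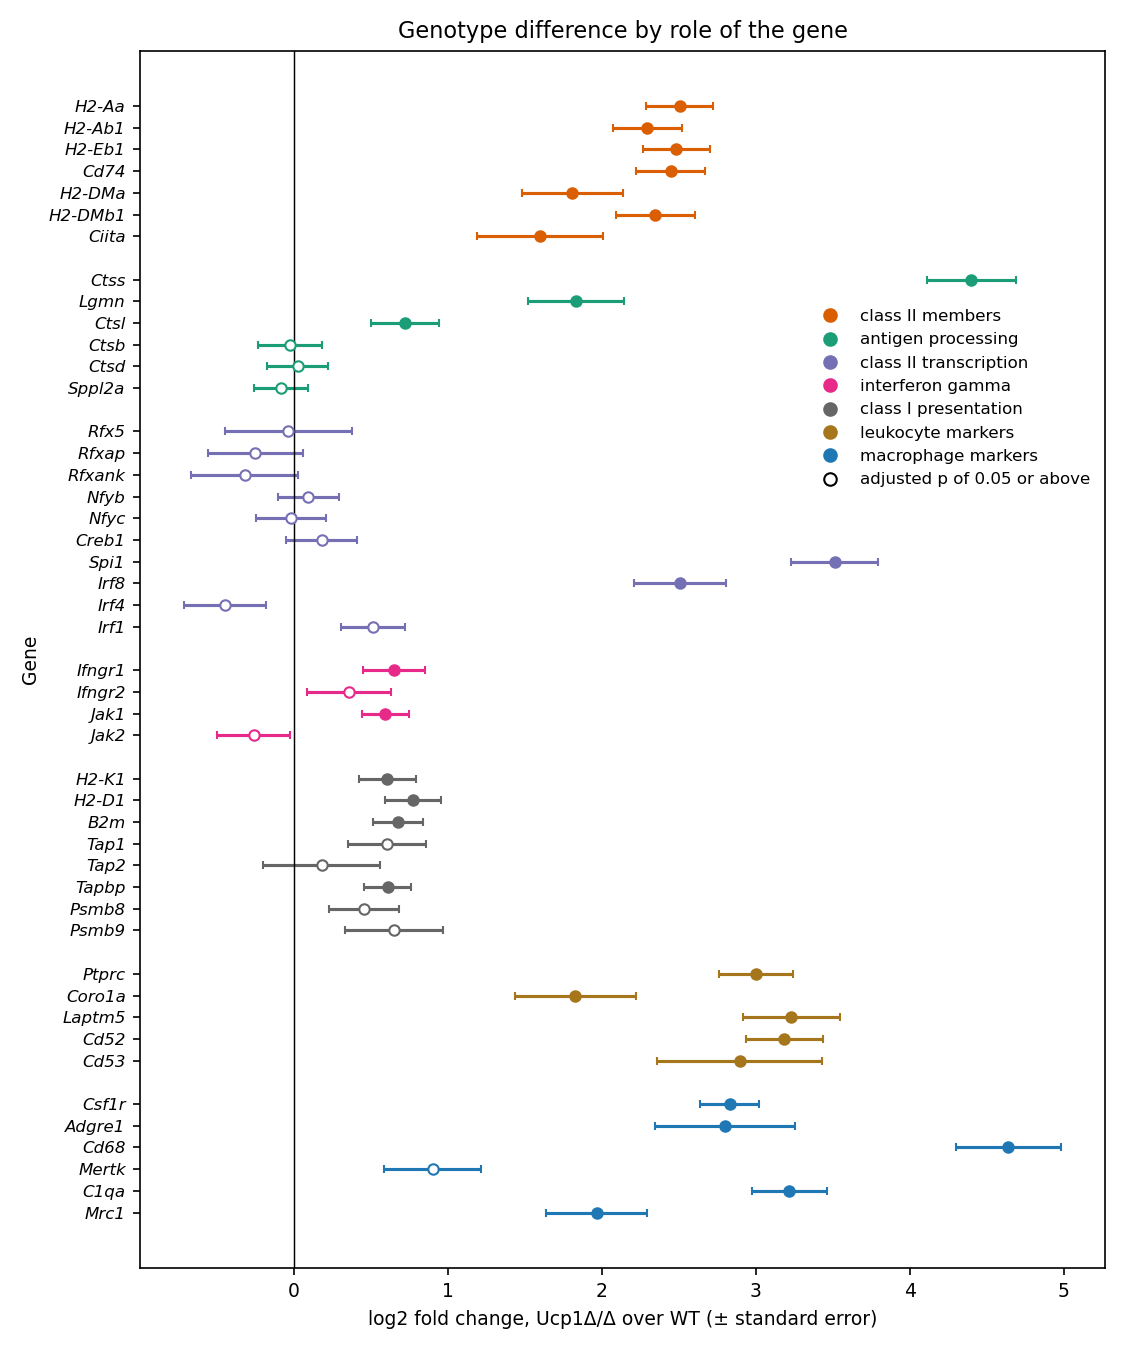
Log2FC of Ucp1Δ/Δ over WT with its SE for tested genes of 7 lists, where open symbols have an adjusted p of 0.05 or above. The class II genes lie between 1.60 and 2.50, the class I genes between 0.18 and 0.77, and Ctss and Cd68 are the farthest to the right. Cd53 and Cd68 met the filter on low counts only through Ucp1Δ/Δ mice, which fixed the direction of their calls.

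The DNA-binding subunits of the enhanceosome were present in both genotypes and were not called: Rfx5 had a log2FC of -0.04, Rfxap of -0.25 and Rfxank of -0.32, and Nfyb, Nfyc and Creb1 lay between -0.02 and 0.18. Spi1, the myeloid factor PU.1, had 7, 11, 8 and 7 counts in WT mice and 108, 190, 80 and 84 counts in Ucp1Δ/Δ mice (log2FC 3.51, SE 0.28, adjusted p = 6.92e-07). Irf8, a factor of macrophages and dendritic cells, had 10, 7, 5 and 10 counts in WT mice and 55, 74, 45 and 48 counts in Ucp1Δ/Δ mice (log2FC 2.51, SE 0.30, adjusted p = 2.6e-05). Spi1 and Irf8 were the 2 of 11 tested genes of this list that rose, and the median log2FC of the list was -0.02.

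Transcripts of the interferon gamma route were measured because this cytokine drives the inducible promoter of Ciita. Ifng itself had 0, 2, 0 and 0 counts in WT mice and 1, 0, 0 and 0 counts in Ucp1Δ/Δ mice, at or below the counting floor throughout. Of the 4 genes tested, Ifngr1 (log2FC 0.65, adjusted p = 0.0298) and Jak1 (0.59, adjusted p = 0.0103) were higher, and Ifngr2 (0.36) and Jak2 (-0.26) were not called. The call of Ifngr1 was lost when any of 3 mice was left out. Irf1, which relays the signal to Ciita, had a log2FC of 0.51 and was not called (adjusted p = 0.0957).

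T cells also require costimulation from the presenting cell. Of 6 ligands listed, only Cd274, which encodes the inhibitory ligand PD-L1, had enough counts to be tested, and it fell from 61.0 ± 22.5 to 31.6 ± 3.95 CPM (SD, n = 4 each; log2FC -0.96, SE 0.23, adjusted p = 0.00717). Its level was 57.6, 47.0, 93.8 and 45.6 CPM in WT mice and 25.8, 33.3, 34.7 and 32.6 CPM in Ucp1Δ/Δ mice, opposite in direction to the class II genes. Which cells of the tissue carried the Cd274 transcript was not tested, so its fall cannot be assigned to presenting cells. Cd86, a ligand of CD28, had 2, 0, 0 and 0 counts in WT mice and 10, 10, 7 and 6 counts in Ucp1Δ/Δ mice, and is named after its counts were seen. Cd80 and Pdcd1lg2 had at most 3 counts in every mouse.

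The levels of leukocyte genes moved with those of class II. All 5 leukocyte markers were called higher in Ucp1Δ/Δ mice, as were 13.3% of all genes tested. Their summed level was 13.7 to 34.0 CPM in WT and 170 to 260 CPM in Ucp1Δ/Δ mice, and their median log2FC was 3.0. Among them, Cd53 had 2, 4, 4 and 0 counts in WT mice, below the filter level in each. It was tested only through Ucp1Δ/Δ mice, so the direction of its call was fixed by the filter. Of 6 macrophage markers tested, 5 were higher, and the summed level of all 8 was 71.5 to 95.4 CPM in WT and 453 to 703 CPM in Ucp1Δ/Δ mice. Examples are C1qa (log2FC 3.22), Csf1r (2.83) and Cd68 (4.64). Cd68 had 4, 10, 5 and 6 counts in WT mice. Scaled by total counts, as in the filter, it lay below about 4.22 CPM in every WT mouse. It was tested only because Ucp1Δ/Δ mice reached that level, so the direction of its call was fixed by the filter. Stromal progenitor markers moved the same way as leukocyte genes, 4 of 5 being higher. Their summed level was 289 to 398 CPM in WT and 805 to 1424 CPM in Ucp1Δ/Δ mice. Of 5 endothelial markers, 1 was called higher, Tie1 (log2FC 0.81), with a summed 133 to 170 CPM in WT and 184 to 202 CPM in Ucp1Δ/Δ mice. Of 7 brown adipocyte markers, Adipoq (log2FC -0.82), Plin1 (-0.91) and Cidea (-1.16) were lower, and Dio2 (1.46) was higher. The part of each of these lists in the class II result was not tested.

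Markers of other presenting cells were mixed. Among dendritic cell markers, Clec9a, Cd209a and Ccr7 had at most 3 counts in every mouse, Flt3 and Xcr1 at most 4 and 6, and Zbtb46, at 19.7 CPM in WT and 18.2 CPM in Ucp1Δ/Δ mice, had a log2FC of -0.11 and was not called. Itgax, which macrophages also express, had 1, 0, 0 and 1 counts in WT mice and 31, 72, 26 and 49 counts in Ucp1Δ/Δ mice. It was called higher by edgeR (adjusted p = 4.9e-06). It lay below the filter level of about 4.22 CPM in every WT mouse and was tested only because Ucp1Δ/Δ mice reached that level. The direction of its call was therefore fixed by the filter. Batf3, a factor of cross-presenting dendritic cells, was not tested and had 2, 1, 0 and 0 counts in WT mice and 10, 21, 6 and 17 counts in Ucp1Δ/Δ mice, which do not overlap. The summed level of the 8 dendritic cell markers was 17.2 to 30.6 CPM in WT and 30.4 to 49.8 CPM in Ucp1Δ/Δ mice. Of 7 B cell markers, 6 had at most 3 counts in every mouse, Cd79a among them with 0. The exception was Ighm, whose groups overlapped, with 2, 12, 8 and 3 counts in WT mice and 57, 22, 27 and 12 counts in Ucp1Δ/Δ mice (log2FC 1.99, adjusted p = 0.00971). The summed level of the B cell markers was 2.04 to 6.72 CPM in WT and 6.44 to 20.9 CPM in Ucp1Δ/Δ mice. None of the 7 T cell markers had enough counts to be tested, and their summed level was 2.04 to 6.58 CPM in WT and 5.58 to 12.4 CPM in Ucp1Δ/Δ mice.

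To compare the size of these differences, class II genes were set against leukocyte genes within each mouse. The log2 ratio of H2-Ab1 to Ptprc, the pan-leukocyte phosphatase CD45, was 2.57 to 3.40 in WT mice and 2.53 to 2.76 in Ucp1Δ/Δ mice. Such ratios are in CPM and not per length, so only their difference between genotypes was compared. The ratio to Ptprc was 0.54 lower in Ucp1Δ/Δ mice on the log2 scale (difference -0.54, SE 0.20), with overlapping groups (exact permutation p = 0.0857, adjusted p = 0.386 over 12 ratios). For H2-Aa, H2-Eb1 and Cd74 the difference in the ratio to Ptprc was -0.36 (SE 0.23), -0.38 (SE 0.26) and -0.41 (SE 0.27). Against Csf1r, the receptor for macrophage colony-stimulating factor, the 4 differences ran from -0.46 (SE 0.34) for H2-Ab1 to -0.28 (SE 0.29) for H2-Aa. Without WT replicate 4 the difference to Csf1r was -0.19 for H2-Ab1 and -0.03 for H2-Aa, and without Ucp1Δ/Δ replicate 2 it was -0.14 for Cd74. None of these 8 ratios passed the exact permutation test, at unadjusted p from 0.0857 to 0.457, and 0 had an adjusted p under 0.05. The smallest p that this test can give here is 0.0286. An adjusted p under 0.05 would thus have required most of the 12 ratios to reach that minimum, so the adjusted values carry little information. Ptprc had 16, 13, 10 and 14 counts in WT mice, so its log2 CPM depends on the prior count. With a prior count of 0.5 in place of 2, the difference to Ptprc was -0.652 for H2-Ab1 and -0.479 for H2-Aa. It was -0.489 for H2-Eb1 and -0.525 for Cd74, each with an adjusted p of 0.386 (exact permutation test). Differences of this size could not be told from the spread between mice.

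**Figure D5:**
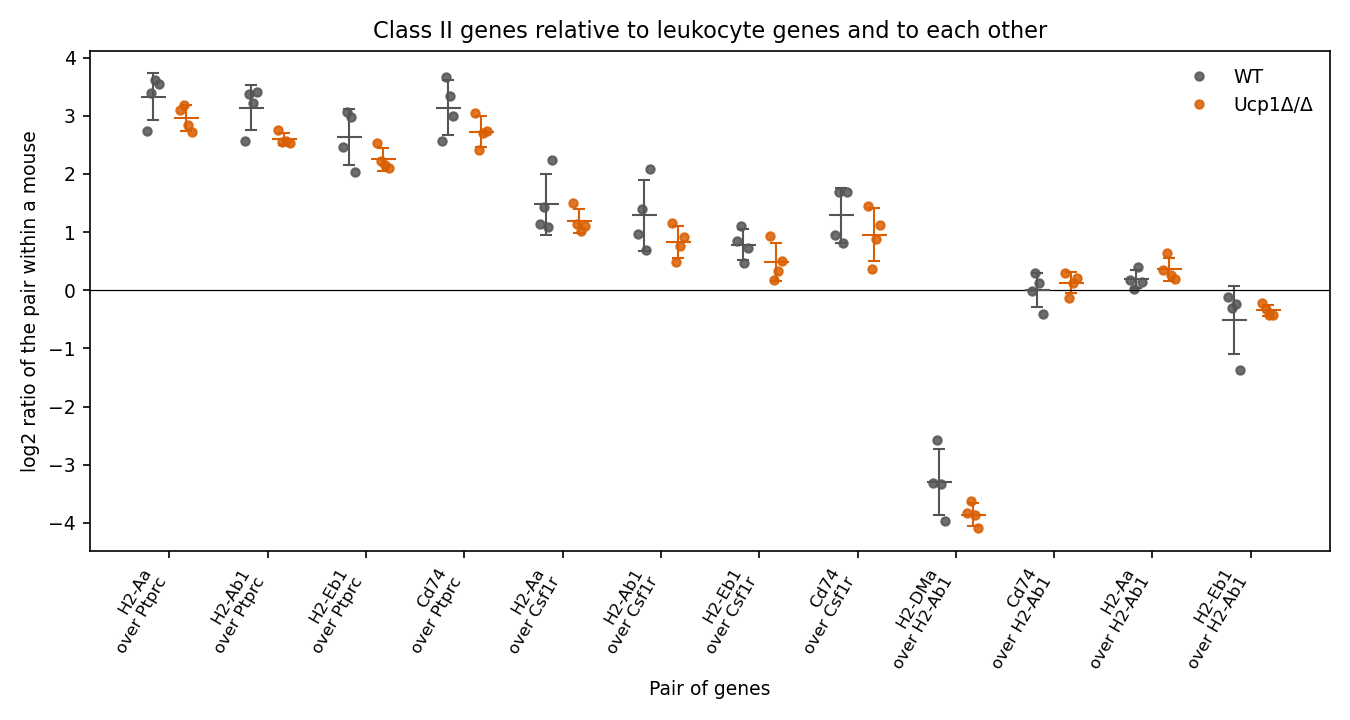
Log2 ratio of 2 genes within a mouse for the 12 pairs tested, 1 point per mouse with the mean and SD (n = 4) of each genotype. The groups overlap for each pair, and the means relative to Ptprc and Csf1r lie 0.28 to 0.54 lower in Ucp1Δ/Δ mice.

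Among the class II genes themselves, the ratios to H2-Ab1 differed by 0.18 (SE 0.13) for H2-Aa, 0.16 (SE 0.30) for H2-Eb1, 0.13 (SE 0.17) for Cd74 and -0.56 (SE 0.30) for H2-DMa. Without WT replicate 4 the difference was -0.13 for H2-Eb1, -0.01 for Cd74 and -0.79 for H2-DMa. The adjusted p over the 12 ratios ran from 0.386 to 0.943 for these 4 (exact permutation test). The mean log2 ratio of Cd74 to H2-Ab1 was -0.00145 in WT and 0.13 in Ucp1Δ/Δ mice.

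Other ratios were chosen after the values had been seen and carry no test. The log2 ratio of H2-Ab1 to Ctss ran from 1.82 to 3.31 in WT and from -0.12 to 0.95 in Ucp1Δ/Δ mice. Likewise, the log2 ratio of H2-Ab1 to Cd68, a lysosomal protein of macrophages, ran from 3.70 to 4.44 in WT and from 1.43 to 2.40 in Ucp1Δ/Δ mice. Ctss and Cd68 thus differed between genotypes by more than H2-Ab1 did, and the genotypes did not overlap in either ratio. Cd68, with 4 to 10 counts in WT mice, met the filter on low counts only through Ucp1Δ/Δ mice.

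The profile of the class II genes over the 8 mice was also compared with that of genes outside the lists. Likeness was the root mean square difference in log2 CPM, after each gene was centred on its own mean, from the mean profile of the 6 members with a mean of at least 10 CPM. The members themselves lay 0.163 to 0.361 from this profile, to which each of them contributes, so their distances are not comparable with those of other genes. All 6429 genes with a mean of at least 10 CPM were compared, the list genes included, and only genes outside the lists were then named. The nearest of these were Col5a1 (0.158), a fibrillar collagen chain, Pcolce2 (0.203), an enhancer of procollagen cleavage, Map1b (0.228), a microtubule-associated protein, Cald1 (0.234), an actin-binding protein, and Sox4 (0.237), a transcription factor. Ptprc and Csf1r lay 0.377 and 0.384 away, B2m 0.827, Cd68 1.03 and Ctss 1.06. The log2FC of the 5 nearest genes ranged from 1.98 (Sox4) to 2.73 (Map1b). A log2FC near that of the class II genes follows from the choice, because the profile contains the genotype difference.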

How the data were processed

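The authors trimmed the reads, aligned them to mm10 and counted them per Ensembl gene, and deposited raw counts with 1 column per mouse. The study's methods name bbduk, STAR and HTseq-counts, whereas the submitters' processing notes name Trimmomatic, HISAT2 and DESeq2. The annotation release is not given in the sources used here. The authors also deposited log2 values, each equal to the log2 of the count over 1 factor per mouse, plus 1, which were used for 1 alternative only.

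Genes with low counts were removed by the default filterByExpr rule, TMM scaling was applied, and genotypes were compared without covariates by the quasi-likelihood test of edgeR 4.0.16 in R 4.3.3, adjusted by Benjamini-Hochberg over 8930 genes. The study used DESeq2. The threshold was an adjusted p of 0.05. CPM rested on TMM-scaled libraries, and a prior count of 2 was added for log2 CPM. SE was obtained by dividing the absolute log2FC by the square root of the F statistic. Per-length levels used the annotated exons of the gene, and symbols came from GENCODE annotation of mm10 (30934 of 31053 identifiers). Single values were compared by two-sided exact permutation tests (scipy 1.17.1).

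Alternatives were DESeq2 size factors, total counts only, 2 other filters on low counts, DESeq2 1.42.0, limma 3.58.1 (voom, and trend on the deposited log2 values), blocking on the replicate number, omission of single mice and, added after the data were seen, edgeR with robust estimation. For the ratios, a prior count of 0.5 was also used. The tests were checked on simulated counts.

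The 8 genes, the lists and the tests were chosen with earlier results of these data known. Genes were named by rule: the 8 members and Pnpla2; in the pathway lists, the genes with an adjusted p under 0.05; up to 3 genes per marker list; and the 5 genes outside the lists with the nearest profile. Genes named outside this rule, such as Marchf1, Cd86, Itgax, Batf3 and the genes that were not called, were named to account for the lists. Ifi30 and H2-Ea, of the antigen processing and other class II lists, were not analysed here. Nothing but the replicate numbers in the labels separates the mice of a genotype, so p-values measure the spread between these samples. Between mice of a genotype, chi-square over its degrees of freedom was 5.36 to 25.8, so no library was a duplicate. Floors cover counting error only. The values of 1 gene of the class II transcription list, which counts in the totals of that list, are not reported here.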

Additional observations from a re-analysis of the deposited data

Results flagged for a closer look

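For the 8 genes and the 12 ratios, 40 groups of 4 mice were examined for a mouse that stood apart from the other mice of its genotype by Dixon's criterion. It marked 2 groups, as many as the 2 that chance would give at 1 group in 20. The ratios reuse the same genes and mice, and H2-DMb2 was barely detected, so this expected number is only a rough guide. For H2-DMb2, Ucp1Δ/Δ replicate 2 had 5 counts and the other Ucp1Δ/Δ mice 0, a gap of 1 relative to the range. For the log2 ratio of H2-Eb1 to H2-Ab1, WT replicate 4 was at -1.37 and the other WT mice between -0.30 and -0.11, a gap of 0.85 relative to the range. That mouse had the highest WT level of H2-Ab1, at 82.6 CPM, and the lowest of H2-Eb1, at 31.4 CPM, and the cause was not tested.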

How the results depend on the processing

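Of the 8 genes, 7 were called under each alternative run except 2: 5 when at least 10 counts were required in every mouse, a filter that leaves fewer genes to test, and 6 without Ucp1Δ/Δ replicate 2, where Ciita lost its call. The log2FC of H2-Aa, H2-Ab1, H2-Eb1, Cd74 and H2-DMb1 stayed between 2.11 and 2.68 in these alternatives, that of H2-DMa between 1.54 and 2.31, and that of Ciita between 1.24 and 1.97. Over all genes, scaling by total counts left 404 called lower. The filter of 10 counts gave 1195 calls, 746 higher and 449 lower. When single mice were omitted, the number called lower ranged from 400 (without Ucp1Δ/Δ replicate 2) to 851. The differences in the 12 ratios were not called and moved with single mice, from -0.79 to 0.29 over all ratios, and 2 of them, Cd74 and H2-Eb1 relative to H2-Ab1, changed sign without WT replicate 4.

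Same-numbered mice are different animals, and their deviations from the group means correlated at -0.09, -0.20, 0.30 and 0.24, so the numbers were not taken to pair them. With the replicate number as a block, 7 class II genes and 1719 genes in all were called, of which 1138 were higher and 581 lower. The depth, 2017697 to 3115956 counts, limits H2-DMb2, H2-Oa, H2-Ob, H2-Eb2, Cd86, Marchf1 and Ifng, for which a difference was not detectable or not tested.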
